A study of Mus musculus with 16 samples.

Results

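A set of 10 genes of the immediate early response were followed in RNA from mouse spleen: *Fos*, *Fosb*, *Jun*, *Junb*, *Egr1*, *Atf3*, *Ier2*, *Nr4a1*, *Dusp1* and *Zfp36*. They were taken by symbol from a count table of 54838 genes, in which all 10 were found, and all 10 passed the filter on low counts that 14510 genes passed. RNA was sequenced from 8 size-selected and 8 whole spleen samples of C57BL/6 mice, with no genetic change or treatment named, and each of 8 numbers (4 male, 4 female) gave a sample to each group. The size-selected samples, whose source the labels call spleen glia, are material that a cell strainer held back after mincing, enzymatic digestion that ended with Dispase II, and red cell lysis. The labels attach this same text to the whole spleen samples, so how whole spleen was prepared, and whether it met the enzymes, is not given in the sources used here. Age is not given either. That a number stands for a mouse is not stated, so p-values measure the spread between these samples.

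Immediate early genes are switched on within minutes of a stimulus by factors already present in the cell, without new protein synthesis. Their products include transcription factors, such as the Fos and Jun proteins that pair as the AP-1 complex, and proteins that end the response, such as the phosphatase encoded by *Dusp1* and the mRNA-binding protein encoded by *Zfp36*. Enzymatic dissociation of tissue is a known trigger of these genes, and lymphocytes and macrophages of the spleen also switch them on after receptor stimulation.

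The bases just upstream of the transcription start are shown for 7 of the genes. The core of the cAMP response element (CRE), the site of CREB and ATF factors, recurs there, also before genes not called between the fractions on deposited values. Sequences are from RefSeq (GRCm38.p6), which matched 8 of the 10 genes, all but *Egr1* and *Ier2*. Each line gives 150 bases 5′ to 3′ up to the base before the RefSeq start. The line for *Dusp1* holds the 103 bases that lie upstream of its GENCODE exon, the last bases of *Fosb* (6) and *Atf3* (7) fall inside a GENCODE exon, and the window of *Zfp36* lies within an exon and is not printed. Capitals mark TGACG on either strand (CGTCA on the strand shown) and the related 8-base motifs TGACGTCA, TGACATCA and TTACGTCA.
Fos (chr12:85473740-85473889, plus strand): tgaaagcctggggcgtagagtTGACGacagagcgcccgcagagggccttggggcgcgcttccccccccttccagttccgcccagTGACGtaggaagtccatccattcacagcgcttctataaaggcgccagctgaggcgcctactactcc
Fosb (chr7:19310046-19310195, minus strand): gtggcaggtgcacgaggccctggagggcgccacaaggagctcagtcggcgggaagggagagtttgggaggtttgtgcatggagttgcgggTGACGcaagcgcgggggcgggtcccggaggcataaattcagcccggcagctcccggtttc
Jun (chr4:95052223-95052372, minus strand): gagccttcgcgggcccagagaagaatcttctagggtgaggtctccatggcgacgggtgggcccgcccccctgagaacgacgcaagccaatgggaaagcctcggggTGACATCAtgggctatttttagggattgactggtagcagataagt
Atf3 (chr1:191183334-191183483, minus strand): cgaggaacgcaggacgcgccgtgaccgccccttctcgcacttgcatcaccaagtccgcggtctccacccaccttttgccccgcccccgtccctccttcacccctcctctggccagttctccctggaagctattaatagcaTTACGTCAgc
Dusp1 (chr17:26508520-26508622, minus strand): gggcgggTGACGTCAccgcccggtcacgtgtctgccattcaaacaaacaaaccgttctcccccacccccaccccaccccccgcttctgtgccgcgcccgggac
Junb (chr8:84978749-84978898, minus strand): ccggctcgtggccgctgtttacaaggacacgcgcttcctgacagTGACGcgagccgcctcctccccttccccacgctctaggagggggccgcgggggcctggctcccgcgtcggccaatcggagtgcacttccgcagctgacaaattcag
Nr4a1 (chr15:101266696-101266845, plus strand): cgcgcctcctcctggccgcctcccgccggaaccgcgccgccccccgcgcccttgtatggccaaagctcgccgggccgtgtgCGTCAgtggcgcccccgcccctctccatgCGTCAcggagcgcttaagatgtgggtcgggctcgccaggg
Over the 250 bases before the start, searched on both strands, TGACG was found in 6 of the 8 genes matched (*Fos*, *Fosb*, *Atf3*, *Dusp1*, *Junb* and *Nr4a1*) and in 17.8% of all 32851 RefSeq windows. *Dusp1* held the full palindrome TGACGTCA (1.55% of windows), *Jun* held TGACATCA (2.93%), and *Atf3* held TTACGTCA (0.448%), which contains its TGACG core. That core lies within the 7 bases that fall inside the GENCODE exon of *Atf3*, so it is upstream of the RefSeq start only. The AP-1 site TGANTCA (6.75% of windows) was in none of the 8, a CArG box (1.47%), the site of serum response factor, was in *Zfp36*, and the EGR motif GCGNGGGCG (4.70%) was in *Fosb*, *Zfp36* and *Nr4a1*. TATAAA (12.4%) was in *Fos*. Bases further upstream were not searched, so the absence of a site holds for this window only. The motifs were chosen after the sequences were read, and a match is a description of letters only: TGACG stood before *Junb* and *Nr4a1*, which were not called between the fractions on deposited values, as well as before *Fos* and *Atf3*, which were.

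Total estimated counts per sample ranged from 13119991 to 19944440 in the size-selected group and from 12153769 to 16282453 in whole spleen. The inactive-X transcript *Xist* and the Y-linked *Ddx3y* matched the labelled sex in all 16 samples. Besides the glial markers (8 of 10 passed the filter, all 8 called higher), the size-selected samples held more RNA of other cell types: 7 of 7 fibroblast, 6 of 6 smooth muscle, 7 of 7 endothelial, 6 of 6 megakaryocyte and 5 of 5 mesothelial markers were called higher, beside 37.5% of all genes tested. For macrophages 4 of 9 markers were called higher, near the share of all genes, and their summed levels overlapped between the groups. Called lower were 6 of 8 B cell, 7 of 8 T cell, 7 of 7 neutrophil and 2 of 6 erythroid markers, beside 30.4% of all genes. With the number as a replicate block, 6 of 6 erythroid and 7 of 8 B cell markers were called lower (31.3% of all genes), and 6 of 9 macrophage markers, 1 of 8 T cell markers and 7 of the 8 glial markers higher (38.1%). Summed fibroblast markers ran from 1061 to 3664 CPM (counts scaled to a common library total) in size-selected samples and from 5.02 to 57.6 CPM in whole spleen. In the same order, endothelial markers ran from 599 to 1509 and from 80.9 to 187 CPM, glial markers from 75.9 to 510 and from 2.76 to 10.8 CPM, B cell markers from 1064 to 3713 and from 5649 to 6903 CPM, T cell markers from 164 to 504 and from 651 to 978 CPM, and macrophage markers from 1805 to 4543 and from 1592 to 2895 CPM. No marker was at 0 in all samples of a group. The size-selected columns of the table also held a numerical feature: values of 3898 genes are estimated counts multiplied by constants (low, middle and high) between 0.659 and 0.964 that differ by sample. Some genes carry a product of constants, and that of the low and the middle constant runs from 0.507 to 0.677. Constants are carried by 8 of the 10 genes, all but *Fos* and *Zfp36*, and by 23.6% of all genes tested. Values are given as deposited, followed by the result on restored counts, in which the constants are divided out. Whole spleen sample 427 stood apart from the other whole spleen samples, with the highest sums of fibroblast, smooth muscle, endothelial and glial markers (57.6, 69.3, 187 and 10.8 CPM). Leaving it out changed no call among the 10 genes.

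*Fos* and *Fosb* encode subunits of AP-1 that bind DNA only with a partner such as a Jun protein. *Fos* (ENSMUSG00000021250, chromosome 12, 85473890 to 85477273, GENCODE M21 on GRCm38) had a lowest, median and highest level of 75.2, 108 and 178 CPM in the 8 whole spleen samples and of 921, 1121 and 2113 CPM in the 8 size-selected samples. The lowest size-selected sample lay far above the highest whole spleen sample, and the change was the largest of the 10 genes. The edgeR log2 fold change of *Fos* was 3.41 (SE 0.21, adjusted p = 2.52e-10), a 10.6-fold rise seen in 8 of 8 pairs, and it was 3.35 on restored counts. In bulk samples, a larger share of cells that express a gene and more of its RNA per cell cannot be told apart, and the cell types of the fractions differed as given above. Their part in these changes was not tested.

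*Fosb* (ENSMUSG00000003545, chromosome 7, 19302696 to 19310051) had the lowest level of the 10 genes in both groups, also per kilobase of exon. Whole spleen gave 5.88, 17.4 and 26.3 CPM (lowest, median and highest) and the size-selected samples 46.6, 68.7 and 156 CPM. The groups did not overlap, although whole spleen samples spread over a wide range, with the 3 lowest at 5.88, 6.94 and 10.9 CPM. *Fosb* rose by 2.26 on the log2 scale (SE 0.33, edgeR adjusted p = 7.71e-06), higher in 8 of 8 pairs. It carries the product of the low and the middle constant, and on restored counts the log2 fold change was 2.95, with 75.7, 107 and 245 CPM in the size-selected samples.

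**Figure D1:**
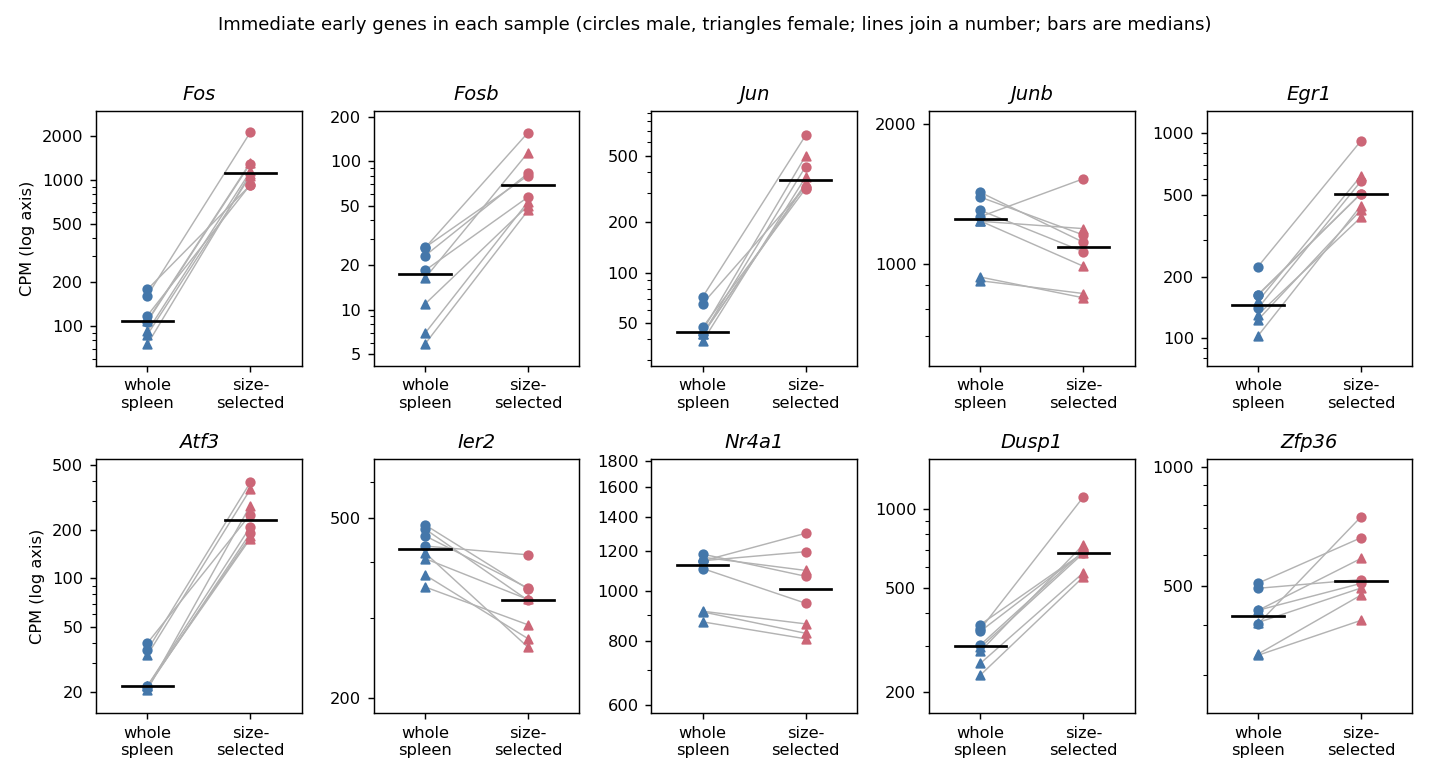
CPM on a log axis with its own range for each of the 10 genes, as deposited; each line joins the whole spleen (left) and size-selected (right) sample of a number, circles are male, triangles female and bars medians of 8 samples. For *Fos*, *Fosb*, *Jun*, *Egr1*, *Atf3* and *Dusp1* every right-hand point lies above every left-hand point, whereas *Junb*, *Ier2*, *Nr4a1* and *Zfp36* overlap.

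*Jun* and *Junb* encode Jun proteins, which pair with each other or with Fos proteins. *Jun* (ENSMUSG00000052684, chromosome 4, 95049034 to 95052222) measured 38.9, 44.0 and 71.6 CPM in whole spleen and 318, 357 and 660 CPM in the size-selected samples (lowest, median and highest). The groups did not overlap, and 6 of the 8 whole spleen samples lay between 38.9 and 47.1 CPM. *Jun* rose by 3.05 on the log2 scale (SE 0.18, edgeR adjusted p = 1.62e-10) in 8 of 8 pairs, or 3.13 on restored counts. It shares 232 exonic bases with the antisense gene *Junos*, and no source says that reads were counted by strand, so reads of the pair cannot be told apart there.

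*Junb* (ENSMUSG00000052837, chromosome 8, 84974484 to 84978718) had the highest level of the 10 genes in whole spleen per kilobase of exon. It measured 920, 1251 and 1426 CPM there and 846, 1089 and 1526 CPM in the size-selected samples, and the groups overlapped over most of their range. On deposited values its log2 fold change was -0.15 (SE 0.13, edgeR adjusted p = 0.296), higher in 1 of 8 pairs. *Junb* carries the low constant, and on restored counts the direction turned: the log2 fold change was 0.25 (SE 0.12, edgeR adjusted p = 0.0809), higher in 8 of 8 pairs. With the number as a replicate block on restored counts it was 0.24 and called (edgeR adjusted p = 0.0299). *Junb* and *Prdx2*, on the opposite strand, share 173 exonic bases, so its level is uncertain to that extent.

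*Atf3* and *Egr1* encode transcription factors outside the Fos and Jun families; ATF3 can pair with Jun proteins, and EGR1 is a zinc finger protein that binds GC-rich sites. *Atf3* (ENSMUSG00000026628, chromosome 1, 191170296 to 191218039) measured 20.6, 21.7 and 39.9 CPM in whole spleen and 176, 228 and 391 CPM in the size-selected samples. In whole spleen 5 of the 8 samples lay between 20.6 and 21.7 CPM and the other 3, numbers 427, 435 and 436, between 33.7 and 39.9 CPM, all far below the size-selected range. The log2 fold change of *Atf3* was 3.23 (SE 0.21, edgeR adjusted p = 4.84e-10), higher in 8 of 8 pairs and 3.31 on restored counts. *Egr1* (ENSMUSG00000038418, chromosome 18, 34859823 to 34864984) measured 103, 146 and 224 CPM in whole spleen and 390, 508 and 920 CPM in the size-selected samples. The groups of *Egr1* did not overlap either, but the step between them was smaller than for *Atf3*. Its log2 fold change was 1.88 (SE 0.18, edgeR adjusted p = 3.27e-08) in 8 of 8 pairs, or 1.96 on restored counts.

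*Nr4a1* encodes an orphan nuclear receptor that T and B cells switch on after antigen receptor signalling, and *Ier2* encodes a small protein of the early response. Neither was higher in the size-selected samples. *Nr4a1* (ENSMUSG00000023034, chromosome 15, 101254269 to 101274795) measured 871, 1127 and 1183 CPM in whole spleen and 807, 1009 and 1299 CPM in the size-selected samples. The ranges lay on top of each other, the log2 fold change was -0.06 (SE 0.11, edgeR adjusted p = 0.66), and 2 of 8 pairs were higher. It was 0.01 on restored counts (adjusted p = 0.917) and 0.07 with library totals, so its direction was not stable.

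*Ier2* (ENSMUSG00000053560, chromosome 8, 84661331 to 84662852) measured 352, 426 and 482 CPM in whole spleen and 259, 329 and 414 CPM in the size-selected samples as deposited. Although the ranges overlapped, all 8 pairs were lower, and *Ier2* fell by 0.39 on the log2 scale (SE 0.10, edgeR adjusted p = 0.00222). *Ier2* carries the low constant, and the call was lost on restored counts: the size-selected samples measured 348, 419 and 538 CPM, and the log2 fold change was 0.01 (SE 0.10, adjusted p = 0.928). *Ier2* had the smallest spread of the 10 genes in both groups.

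*Dusp1* and *Zfp36* encode feedback regulators: DUSP1 removes phosphate from MAP kinases, and ZFP36 (tristetraprolin) directs AU-rich mRNAs, including those of early response genes, to decay. *Dusp1* (ENSMUSG00000024190, chromosome 17, 26505590 to 26562128) measured 232, 300 and 362 CPM in whole spleen and 550, 682 and 1110 CPM in the size-selected samples. The groups did not overlap. The log2 fold change of *Dusp1* was 1.23 (SE 0.13, edgeR adjusted p = 1.92e-07), a 2.34-fold rise in 8 of 8 pairs, and 1.31 on restored counts. Its long annotation overlaps 4 other genes, of which *Ergic1*, on the opposite strand, shares 11 exonic bases.

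*Zfp36* (ENSMUSG00000044786, chromosome 7, 28376784 to 28380253) measured 336, 420 and 509 CPM in whole spleen and 411, 514 and 748 CPM in the size-selected samples. The groups overlapped, yet each of the 8 pairs was higher. *Zfp36* rose by 0.39 on the log2 scale (SE 0.12, edgeR adjusted p = 0.00877), a 1.31-fold rise, the smallest of the called rises, and by 0.34 on restored counts (adjusted p = 0.0205). It shares 125 exonic bases with the antisense gene *Gm44710*.

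In all, 8 of the 10 genes were called, where 67.9% of all genes tested were. Of the 10, 7 were called higher (37.5% of all genes tested), 1 lower (30.4%) and 2 were not called, and the replicate block gave the same counts of 7 (38.1%) and 1 (31.3%). Every size-selected sample lay above every whole spleen sample for 6 of the 10, against 23.3% of all genes tested, and 7 of the 10 were higher in 8 of 8 pairs, against 31.3%. A called rise of 1 or more on the log2 scale was found for 6 of the 10 and for 24.8% of all genes. The median log2 fold change was 1.55 over the 10 genes and 0.05 over all genes tested. On restored counts 7 of the 10 were called higher (37.6% of all genes), 0 lower (30.4%) and 3 were not called, and with the replicate block on restored counts 8 were called higher (38.1%) and 0 lower (31.3%). Ordered by size on restored counts, the log2 fold changes of *Fos*, *Atf3*, *Jun* and *Fosb* lay between 2.95 and 3.35. Those of *Egr1*, *Dusp1* and *Zfp36* were 1.96, 1.31 and 0.34, and those of *Junb*, *Nr4a1* and *Ier2* lay between 0.01 and 0.25. Of these 10 genes, 0 are in the authors' deposited table, in which the lowest log2 fold change of its 2201 genes is 3.50. *Fos*, at 3.41, lay just under that value.

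**Figure D2:**
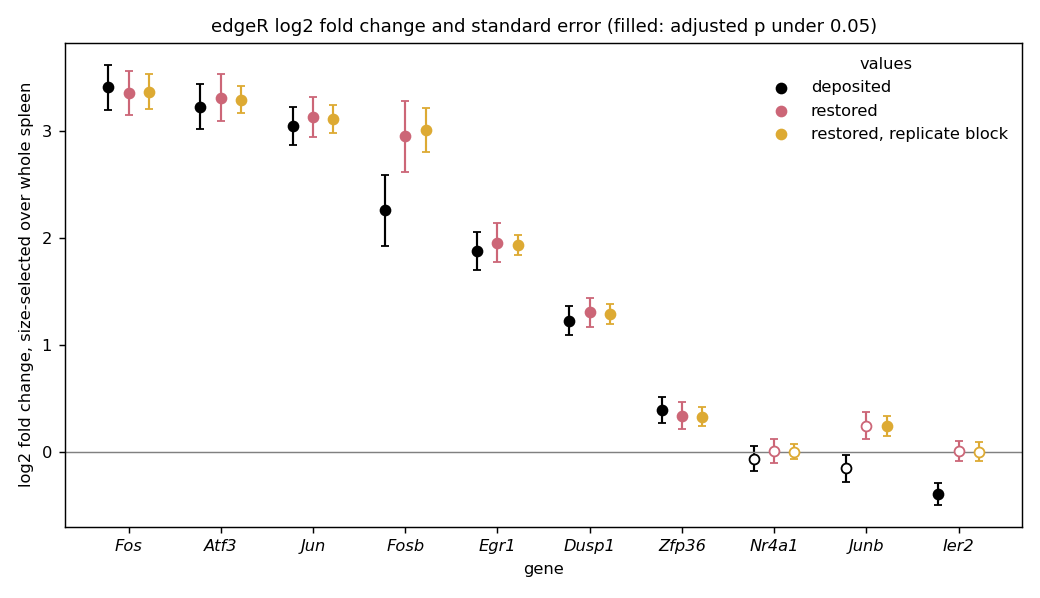
Log2 fold change, size-selected over whole spleen, with its standard error for each of the 10 genes, from deposited values (black), restored counts (red) and restored counts with the replicate block (yellow); filled points have an adjusted p under 0.05. *Fosb* moves from 2.26 to 2.95 between deposited and restored values, and *Ier2* from -0.39 to 0.01.

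Levels were compared between genes as CPM per kilobase of merged exon, which removes most of the effect of transcript length. In whole spleen the order of medians was *Junb* (544), *Nr4a1* (321), *Ier2* (280), *Zfp36* (121), *Dusp1* (90.5), *Fos* (46.0), *Egr1* (32.5), *Jun* (13.8), *Atf3* (10.1) and *Fosb* (2.78 CPM per kilobase). Neighbours in this order whose ranges overlapped were *Nr4a1* and *Ier2*, *Zfp36* and *Dusp1*, *Dusp1* and *Fos*, *Fos* and *Egr1*, and *Jun* and *Atf3*. The 3 genes at the top of the whole spleen order, *Junb*, *Nr4a1* and *Ier2*, are those that were not called higher on deposited values. In the size-selected samples *Fos* came to the top with a median of 477 CPM per kilobase, beside *Junb* at 473, and was above *Junb* in 6 of 8 samples. On restored counts the order of that pair turned, with *Junb* at 591 and *Fos* at 448 CPM per kilobase and *Junb* higher in 8 of 8 samples. *Egr1*, *Jun* and *Atf3* lay close together in the size-selected samples, at 113, 112 and 106 CPM per kilobase with overlapping ranges. *Fosb*, at 11 CPM per kilobase (17.2 restored), remained below every other gene of the set without overlap.

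The make-up of the gene families was then described with the same length-scaled values. Among *Fos*, *Fosb*, *Fosl1* and *Fosl2*, *Fos* made up 70.0 ± 4.23% (SD, n = 8) of the family in whole spleen and 92.6 ± 1.04% (SD, n = 8) in the size-selected samples, or 91.2 ± 1.27% on restored counts. The share of *Fosl2*, which encodes another AP-1 subunit, was 21.8 ± 3.63% and 2.96 ± 0.63% (SD, n = 8), while the level of *Fosl2* itself was not called (log2 fold change 0.11, SE 0.11, edgeR adjusted p = 0.39). Summed over the 4 genes, the Fos family had 69.8 ± 17.8 CPM per kilobase in whole spleen and 566 ± 171 in the size-selected samples (SD, n = 8).

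The Jun family differed between the groups in make-up more than in sum. *Jun* made up 1.80 ± 0.36% of the summed *Jun*, *Junb* and *Jund* in whole spleen and 14.1 ± 1.65% in the size-selected samples (SD, n = 8), or 12.4 ± 1.48% on restored counts. Its highest share in whole spleen, 2.48%, lay far below its lowest in the size-selected samples, 11.3%. *Junb* took 61.0% and 52.5% of the family and *Jund* 37.2% and 33.4% in whole spleen and the size-selected samples. On restored counts the size-selected shares were 58.2% for *Junb* and 29.4% for *Jund*. The family summed to 862 ± 109 CPM per kilobase in whole spleen and to 906 ± 190 in the size-selected samples (SD, n = 8). Restored counts gave 845 ± 106 and 1061 ± 221. The summed Fos family stood at 8.01 ± 1.27% of the summed Jun family in whole spleen and at 62.1 ± 8.75% in the size-selected samples (SD, n = 8), or 50.7 ± 6.24% on restored counts.

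*Egr1* made up 42.5 ± 4.58% of the Egr family in whole spleen and 74.5 ± 3.87% in the size-selected samples (SD, n = 8), or 76.1 ± 4.00% on restored counts. *Egr3* went the other way, with 30.1 ± 5.26% and 7.02 ± 2.13%, and was itself called lower (log2 fold change -1.09). *Nr4a1* made up 84.3 ± 1.44% of the Nr4a family in whole spleen and 84.0 ± 2.47% in the size-selected samples (85.1 ± 2.15% on restored counts; SD, n = 8), whereas *Nr4a3* had 7.23 ± 1.29% and 3.20 ± 0.69% and *Nr4a2* 8.49 ± 0.44% and 12.8 ± 2.19%. These shares are descriptions of abundance and were given no test.

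**Figure D3:**
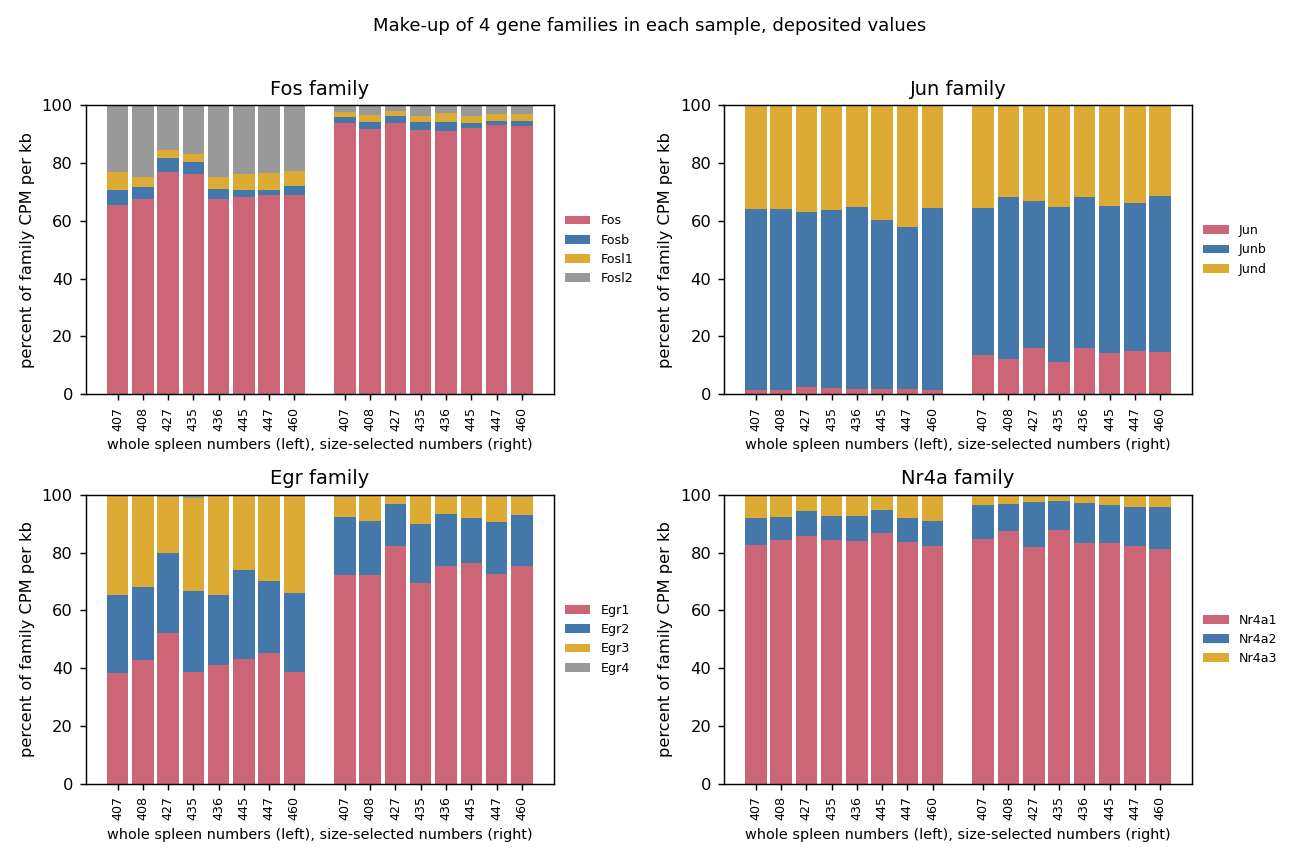
Stacked bars show, for each of the 16 samples, the percent of the summed CPM per kilobase of a family that each member took, with whole spleen numbers on the left and size-selected numbers on the right of each panel. The values are as deposited. The *Fos* share runs from 91.1 to 93.8% in the 8 size-selected samples, the *Jun* share is a thin band in whole spleen (1.39 to 2.48%), and the *Nr4a1* share has means of 84.3% and 84.0%.

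Samples of a group were also compared with each other over the 10 genes. The mean deviation of the 10 genes from their group means (log2 CPM) was highest at number 427 in both fractions, at 0.62 in the size-selected sample (10 of 10 genes above the mean) and 0.35 in whole spleen (9 of 10). Numbers 445, 447 and 460 were the 3 lowest in both fractions: their mean deviations were -0.21, -0.35 and -0.23 in the size-selected samples and -0.38, -0.37 and -0.21 in whole spleen, with at most 1 of 10 genes above the mean. In whole spleen they also had the lowest summed T cell (651, 655 and 764 CPM) and smooth muscle markers (11.5, 8.36 and 10.5 CPM). The lowest size-selected sums lay elsewhere, at numbers 427 (T cell) and 408 (smooth muscle). The part of these markers was not tested. Number 435 was high in whole spleen only (0.34, 9 of 10 genes, against 0.01 in its size-selected sample). Its log2 ratio of size-selected over whole spleen was the lowest of the 8 pairs for 6 of the 10 genes, among them *Junb* with -0.36, and for 4 of the 10 on restored counts. For *Nr4a1* it was the highest, at 0.18. In the size-selected sample of number 435 the summed T cell, B cell, neutrophil and erythroid markers were the highest of the group (504, 3713, 883 and 3511 CPM). Their part in these ratios was not tested.

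The size-selected sample of number 427 was the highest of its group for 9 of the 10 genes, all but *Nr4a1*. Its *Fos*, *Jun* and *Dusp1* levels were 2113, 660 and 1110 CPM, while the next highest samples reached 1312, 499 and 730 CPM. In the same sample the summed B cell and T cell markers were the lowest of the group (1064 and 164 CPM) and the macrophage, endothelial and smooth muscle markers the highest (4543, 1509 and 3647 CPM). Their part in the high values was not tested. Without number 427 in either fraction the log2 fold changes of *Fos*, *Jun* and *Dusp1* were 3.34, 3.01 and 1.14, each still called.

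**Figure D4:**
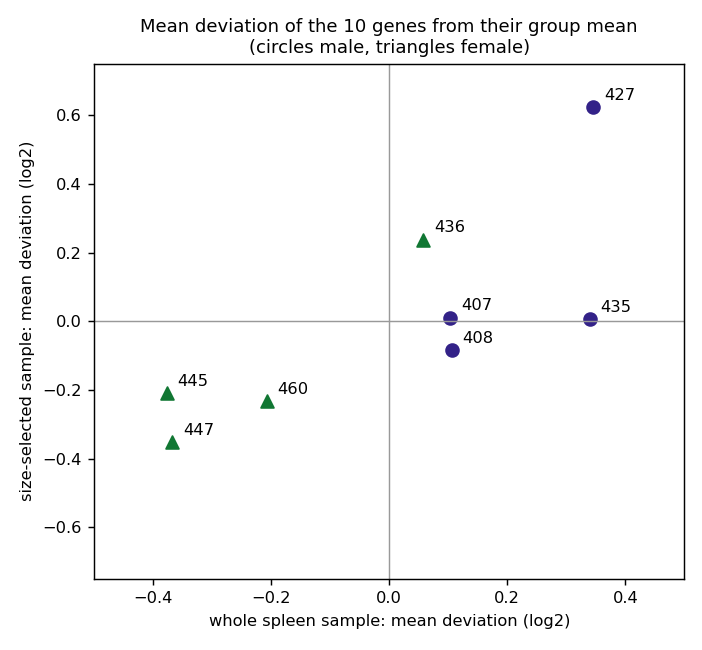
Each point is a number; the horizontal axis gives the mean deviation (log2) of the 10 genes in its whole spleen sample from the whole spleen mean and the vertical axis the same for its size-selected sample, with circles male and triangles female. Number 427 lies at the top right, and numbers 445, 447 and 460 lie together at the lower left.

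The SD between samples differed among the genes. *Fosb* had the largest SD of log2 CPM (0.84 in whole spleen, 0.62 in the size-selected samples) and *Ier2* the smallest (0.16 and 0.22). The median SD over the 10 genes was 0.28 in whole spleen and 0.34 in the size-selected samples, beside medians of 0.32 and 0.34 over all genes tested, which include genes of low counts. Over the genes at least as abundant as the lowest of the 10 in the group (7411 in whole spleen and 2771 in the size-selected samples) the median SD was 0.22 and 0.25, below that of the 10 genes. Among 10094 other genes, those whose log2 CPM followed the mean of the 10 genes most closely over the 8 size-selected samples were *Ssbp2* (r = 0.97), *Ier5l* (r = 0.97), *Prpsap1* (r = 0.96), *Fbxl4* (r = 0.96) and *Lmcd1* (r = 0.95). These r values rest on 8 samples that share libraries and, for *Ssbp2*, *Prpsap1* and *Lmcd1*, the constants. Between fractions their log2 fold changes were 0.10, 0.09, -0.15, 0.95 and 5.18, of which the last 2 were called.

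An interaction term asked whether males and females differed in the fraction change of these genes. Of the 10 genes 0 were called, as were 0% of the 15760 genes tested, with 0 of the 10 genes and 744 of all genes (4.72%) at an unadjusted p under 0.05. DESeq2 and edgeR with the replicate block each called 0 of the 10 genes (0.019% of all genes). At an unadjusted p under 0.05, DESeq2 had 0 of the 10 (5.5% of all genes) and the replicate block 1 (5.93%), which was *Fosb*, with a difference of 0.80 (edgeR adjusted p = 0.626). The largest difference was that of *Fosb*, which rose by a log2 fold change of 1.99 in males and 2.71 in females, a difference of 0.72 (SE 0.50, edgeR adjusted p = 1.00). *Fos* rose by 3.20 in males and 3.65 in females.

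Within whole spleen all 10 genes had lower estimates in females than in males, as did 52% of all genes tested, and 0 of the 10 were called by edgeR (0.0444% of all genes tested), with 3 of the 10 at an unadjusted p under 0.05 (13.1% of all genes) by edgeR and 7 of the 10 (14.8%) by DESeq2. For *Fosb* the 4 female samples lay at 5.88, 6.94, 10.9 and 16.3 CPM and the 4 male samples at 18.4, 23.1, 26.1 and 26.3 CPM. The sexes did not overlap for this gene in whole spleen, and the log2 difference, female minus male, was -1.23 (SE 0.36, edgeR adjusted p = 0.187). DESeq2 called *Fosb* (-1.26, adjusted p = 0.0446) and no other of the 10, where it called 1.75% of all genes. In the size-selected samples all 10 estimates were again lower in females, as were 48.5% of all genes, with 0 called by edgeR (0.0508% of all genes), 0 by DESeq2 (0.273%) and 3 at an unadjusted p under 0.05 by either tool (4.96% and 5.54%). Levels of the 10 genes moved together across samples, with a median r of 0.70 in whole spleen and 0.77 in the size-selected samples over 45 gene pairs. Their shared direction is therefore not 10 independent results. The 3 numbers that were low in both fractions, 445, 447 and 460, are all female. The remaining female number, 436, lay above the group mean in both fractions (0.24 in the size-selected sample and 0.06 in whole spleen). Every male number comes before every female number, so sex cannot be told apart from anything that follows the order of the numbers.

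Other genes of the pathway were examined from lists of known members. Their counts are to be read against the 37.5% of all genes tested that were called higher and the 30.4% called lower. Of 10 AP-1 partners, 6 were called higher, 1 lower and 3 not, with a median log2 fold change of 0.85. *Batf2* (3.11) and *Fosl1* (2.07) were highest, and *Batf* (-0.49) and *Mafg* (-0.24, not called) lowest. *Batf2* stayed at a low level, with medians of 0.532 CPM in whole spleen and 5.26 CPM in the size-selected samples. Of 7 relatives of Egr and Nr4a, 3 were called higher, 2 lower and 2 not (median 0.18). *Egr4* (1.37) and *Nr4a2* (0.52) were highest, and *Nr4a3* (-1.27) and *Egr3* (-1.09) lowest. *Egr4* also stayed at a low level, with medians of 0.206 CPM per kilobase in whole spleen and 0.917 in the size-selected samples. The shares called higher and lower, 3 and 2 of 7, are near those of all genes tested on deposited values. On restored counts the Egr and Nr4a relatives gave 4 of 7 higher, 3 of 7 lower and 0 not called, beside 37.6% and 30.4% of all genes.

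Of 20 early feedback regulators, 9 were called higher, 8 lower and 3 not (median 0.22), beside 37.5% and 30.4% of all genes. The receptor signalling inhibitors *Spry4* (4.68) and *Spry1* (4.21) were highest, and the phosphatases *Dusp2* (-1.33) and *Dusp10* (-0.93), relatives of *Dusp1*, lowest. *Zfp36l1* (-0.59) and *Zfp36l2* (-0.57), paralogs of *Zfp36*, were called lower, and were singled out after their values were seen. Of 32 other early response genes, 31 passed the filter, 22 were called higher, 4 lower and 5 not, and the median of 1.72 was close to that of the 10 genes. *Cyr61* (6.00), a secreted matrix protein gene, and *Ccl2* (5.30), a chemokine gene, were highest, and *Per1* (-0.65) and *Klf2* (-0.52) lowest.

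Of 26 upstream kinases and factors, 8 were called higher, 9 lower and 9 not, with a median of 0.03 beside 0.05 for all genes tested. *Mapk3* (1.42), which encodes the kinase ERK1, and *Map2k6* (1.35) were highest, and *Elk4* (-1.0) and *Crem* (-0.80), genes of factors that act on SRF and CRE sites, lowest. Of 16 heat shock genes, 6 were called higher, 5 lower and 5 not (median 0.09), near the 37.5% and 30.4% of all genes. *Hspa1a* (4.55), whose near-identical copy *Hspa1b* makes its separate level uncertain, and *Hspb1* (4.49) were highest, and *Hspe1* (-1.01) and *Hsp90aa1* (-0.79) lowest. On restored counts, where 37.6% of all genes were called higher and 30.4% lower, the numbers called higher and lower were 6 and 2 of the AP-1 partners, 9 and 7 of the feedback regulators, 24 and 4 of the other early response genes, 9 and 6 of the upstream kinases and factors, and 7 and 6 of the heat shock genes. Of the genes in these lists, 11 are in the authors' deposited table, among them *Spry4* (log2 fold change 4.70 there), *Cyr61* (6.00) and *Il6* (4.68).

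**Figure D5:**
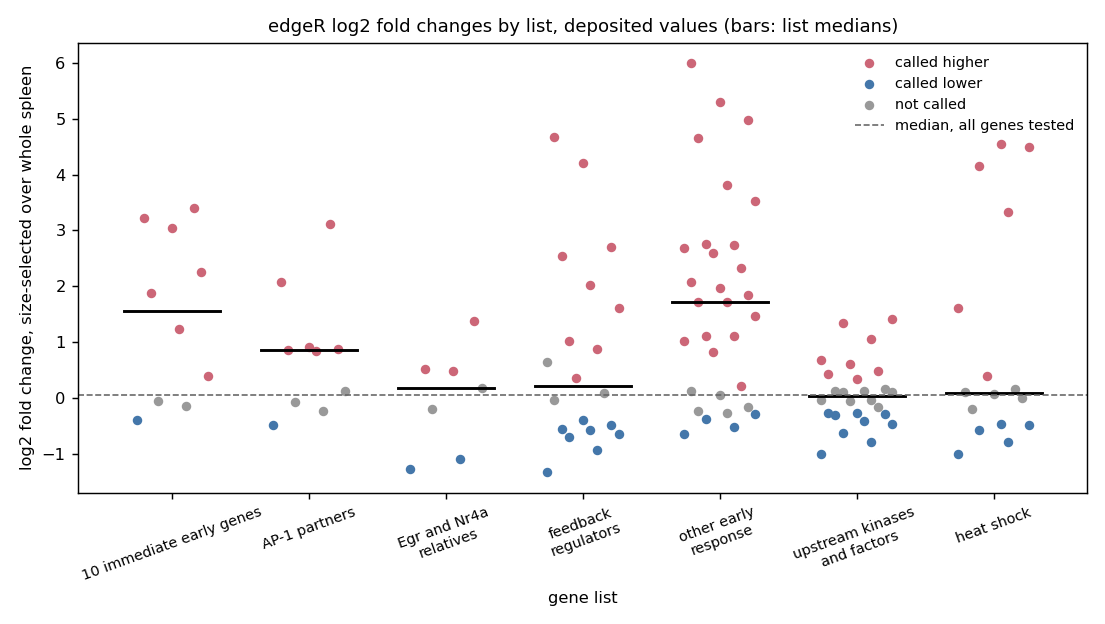
Each point is the edgeR log2 fold change, size-selected over whole spleen, of a gene on deposited values, coloured by its call, for the 10 immediate early genes and 6 related lists; bars are list medians and the dashed line is the median of all genes tested (0.05). The 10 genes and the other early response genes have medians of 1.55 and 1.72, and the upstream kinases and factors a median of 0.03.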

How the data were processed

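RNA-seq of 8 size-selected and 8 whole spleen samples was analysed from a deposited table of estimated counts per gene. Per the submitters' processing notes, Trim Galore, STAR, RSEM and DESeq were used with build mm10; versions and the annotation are not given in the sources used here. The authors' deposited second table gives log2 fold changes and p-values for genes higher in the size-selected group. In it no value is per sample.

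For edgeR 4.0.16 in R 4.3.3 the counts were rounded to integers. The filterByExpr filter used a minimum count of 10, library scaling was TMM, and fractions were compared by the quasi-likelihood F test, with Benjamini-Hochberg adjustment over all genes tested and a threshold of 0.05. The standard error is the log2 fold change over the square root of F. CPM values use TMM-scaled totals, and SDs use log2 CPM with a prior count of 2. Sex contrasts came from a fit of 4 fraction-by-sex groups over all 16 samples. Constants in the size-selected columns were found from the values alone, and no label or file header mentions them. Restored counts divide them out. Scripts were tested on simulated data. In a simulated fraction comparison, 3 of the 203 genes called by edgeR and 27 of the 227 called by DESeq2 were false calls. The sex contrasts within a fraction were not simulated.

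The numbers were taken to pair the samples. Deviations of same-numbered samples correlated at 0.12 to 0.38 across genes (mean 0.21, 8 pairs). Those of different numbers correlated at -0.33 to 0.23 (mean -0.03, 56 pairs), so the 2 ranges overlapped. The replicate block uses them. Other alternatives were RLE scaling, library totals, no filter, DESeq2 1.42.0, and leaving out numbers. The 10 genes and the lists were chosen with earlier results of these data known. From each list the 2 highest and 2 lowest log2 fold changes are named. Genes named for likeness have the 5 highest correlations with the mean of the 10.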

Additional observations from a re-analysis of the deposited data

Results flagged for a closer look

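Among 30 groups of 8 values screened for a sample lying apart, 2 had such a sample, where chance gives 1.5. Both were the size-selected sample of number 427. Its *Fos* level was 11.05 on the log2 CPM scale, with the other 7 samples from 9.85 to 10.36. Its *Dusp1* level was 10.12, with the others from 9.10 to 9.51. The gap to the next sample was 0.574 of the whole range for *Fos* and 0.597 for *Dusp1*, past the 95% limit for 8 samples.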

How the results depend on the processing

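Over 16 alternatives, *Fos*, *Fosb*, *Jun*, *Egr1*, *Atf3*, *Dusp1* and *Zfp36* were called higher in all 16, *Ier2* was called lower in 14, *Junb* was called in 1 and *Nr4a1* in 0. The number of genes called lower went from 1 to 0 on restored counts and to 0 on restored counts with the replicate block. On restored counts the log2 fold changes of *Junb*, *Ier2* and *Nr4a1* turned to 0.25, 0.011 and 0.0148, and on restored counts with the replicate block to 0.24, 0.006 and 0.0059, since dividing by a constant below 1 raises the size-selected values. With library totals *Nr4a1* turned to 0.0727, where the median of all genes moved from 0.05 to 0.18 with that scaling. In whole spleen DESeq2 called 1 of the 10 genes between the sexes, where edgeR called 0, and the cause was not tested. With the replicate block on deposited values the paired fit gave 3.42 for *Fos* and -0.40 for *Ier2*, called 7 of the 10 genes higher and 1 lower, and changed no call of the fraction comparison among the 10. With 1 number at a time left out of both fractions, *Fos* ranged from 3.34 to 3.57, *Fosb* from 2.17 to 2.38, *Jun* from 2.99 to 3.16, *Egr1* from 1.84 to 1.91, *Atf3* from 3.17 to 3.33, *Dusp1* from 1.14 to 1.28 and *Zfp36* from 0.31 to 0.44. No call changed with a number left out. Without whole spleen sample 427 alone, *Egr1* was at 1.98. Depth was no limit for detection of the 10 genes, which all passed the count filter.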
